A study of Arabidopsis thaliana with 6 samples.

Results

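The WRKY genes of Arabidopsis thaliana were examined in seedlings in which the stomatal regulator MUTE had been induced. Members were taken by name: all rows of the deposited expression table whose gene name begins with WRKY or ATWRKY, in any case, plus the row AT4G01250, which the reference annotation names WRKY22. This gave 57 of 33511 rows. The reference annotation knows 72 WRKY genes in all, and the other 15 stand in the table under other names. A member counted as expressed where it reached 1 FPKM (fragments per kilobase of transcript, scaled to the library's total) in at least 3 of the 6 libraries. That level, read without regard to group, chose 37 members for testing. AT4G01250 and ATWRKY49 were already known to be among the largest rises in these data when the family was picked, so their changes are given as description and they are left out of the counts of calls unless a sentence says otherwise.

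Whole seedlings of the Col-0 background carried a MUTE cDNA in pER8, a vector in which estradiol switches on a synthetic activator that drives the inserted gene. All 6 libraries carry this construct, so effects of MUTE, of estradiol and of the activator cannot be told apart. Homozygous seedlings grown for 4 days were bathed for 8 h with 10 µM estradiol (3 libraries) or with the solvent DMSO (3 mock libraries), and each replicate pooled 40 to 50 seedlings. Nothing in the labels says whether replicates came from separate sowings, so p-values measure only the spread between these libraries. MUTE itself was at 1.89 to 3.31 FPKM in mock and at 2946 to 3049 FPKM in estradiol libraries. Rows listed at 0 numbered 9514 in estradiol 1 and 9182 in estradiol 3, and 8559 to 8679 in the other libraries. The table holds no counts, so the depth behind each value is unknown.

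WRKY proteins are plant transcription factors with a DNA-binding domain of a conserved signature followed by a zinc finger, and they bind the W box, a promoter element with the core TTGAC. Group I members carry a pair of such domains, group II members a single domain, split into IIa to IIe by sequence, and group III members a single domain with another form of zinc finger. The family is best known for responses to pathogens, salicylic acid, heat, drought, phosphate shortage and leaf ageing, and several members act downstream of mitogen-activated protein (MAP) kinases that respond to bacterial flagellin.

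The signature itself is the feature that names the family, so its coding DNA is shown for the 2 largest risers, for relatives of both, for WRKY7, the third in size of change, for the pair WRKY11 and WRKY17, and for the members with a different signature. The sequences are from RefSeq's assembly TAIR10.1, 5′ to 3′ on the coding strand, with the 21 bases of the signature in capitals. All 57 members had a match in that annotation, and 65 signatures were found in them, 8 members having 2 and 49 having 1. In the 65 signatures the sixth codon read CAA in 40 and CAG in 22, and AAG in 3, those of ATWRKY50, ATWRKY51 and WRKY59.
AT4G01250 (WRKY22, chr4:523491-523535, minus strand): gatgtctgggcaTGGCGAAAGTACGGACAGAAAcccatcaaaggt
ATWRKY27 (chr5:21411571-21411615, plus strand): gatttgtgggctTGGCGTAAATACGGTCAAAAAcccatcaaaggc
AT4G23550 (WRKY29, chr4:12292479-12292523, plus strand): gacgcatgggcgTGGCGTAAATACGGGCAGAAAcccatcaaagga
ATWRKY49 (chr5:17372586-17372630, minus strand): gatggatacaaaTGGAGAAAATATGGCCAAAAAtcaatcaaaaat
WRKY57 (chr1:26056583-26056627, minus strand): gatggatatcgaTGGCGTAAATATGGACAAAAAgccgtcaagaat
WRKY7 (chr4:12572875-12572919, plus strand): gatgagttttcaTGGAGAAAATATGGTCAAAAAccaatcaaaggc
WRKY17 (chr2:10437958-10438002, minus strand): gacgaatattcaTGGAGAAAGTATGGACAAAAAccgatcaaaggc
WRKY11 (chr4:15290347-15290391, minus strand): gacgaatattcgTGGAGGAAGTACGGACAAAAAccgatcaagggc
ATWRKY50 (chr5:9147567-9147611, minus strand): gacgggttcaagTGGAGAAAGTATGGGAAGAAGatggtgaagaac
ATWRKY51 (chr5:25908852-25908896, plus strand): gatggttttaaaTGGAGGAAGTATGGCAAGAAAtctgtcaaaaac
WRKY59 (chr2:9335750-9335794, minus strand): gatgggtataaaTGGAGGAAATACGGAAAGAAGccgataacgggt

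Promoters were read as the 250 bases before the annotated start of each gene, and searched on both strands for the W box core TTGAC and for the E box CANNTG, the element that basic helix-loop-helix factors such as MUTE are known to bind. That of AT4G01250 is shown beside that of ATWRKY33, a defence regulator that rose less, with matches to either motif in capitals. The window of AT4G01250 held neither motif. That of ATWRKY33 held 2 E boxes and 2 W box cores.
AT4G01250 (chr4:524250-524499, minus strand): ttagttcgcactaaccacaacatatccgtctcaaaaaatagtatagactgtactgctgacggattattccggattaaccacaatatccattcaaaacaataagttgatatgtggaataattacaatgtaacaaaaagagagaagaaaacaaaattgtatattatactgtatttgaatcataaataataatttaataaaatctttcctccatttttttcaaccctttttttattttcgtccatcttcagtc
ATWRKY33 (chr2:16107985-16108234, plus strand): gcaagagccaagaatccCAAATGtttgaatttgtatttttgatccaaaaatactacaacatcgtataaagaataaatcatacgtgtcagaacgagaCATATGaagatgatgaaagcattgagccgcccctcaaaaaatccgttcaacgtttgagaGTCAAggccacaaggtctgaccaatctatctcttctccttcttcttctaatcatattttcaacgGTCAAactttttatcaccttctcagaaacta
Over the 37 expressed members, 16 windows (43.2%) held TTGAC and 23 (62.2%) held CANNTG, against 44.9% and 55.3% of 27443 promoters of protein-coding genes. The longer W box forms TTGACC or TTGACT, which contain the core, stood in 14 windows (37.8%), against 28.4% of all promoters. Leaving out AT4G01250 and ATWRKY49, the 8 members that rose held TTGAC in 6 windows and CANNTG in 6. The 6 that fell held them in 2 and 3. Among the 8, WRKY7 and WRKY21 held neither motif. The window of ATWRKY49 held 1 E box and no W box core. A link between motifs and size of change was not tested. A match is a description of the letters in the window and does not show binding.

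Most WRKY genes were expressed at low to moderate levels. Over the 37 expressed members the mean over all 6 libraries ran from 1.21 FPKM (WRKY28) to 21.0 FPKM (ATWRKY65), with a median of 4.07 FPKM, against 7.53 FPKM over all 19134 genes tested. The 5 highest were ATWRKY65, WRKY7, WRKY17, WRKY21 and WRKY3. ATWRKY65, a group IIe member and the most abundant of the family here, stood at 19.96, 20.86 and 21.01 FPKM in mock 1, 2 and 3 and at 20.60, 22.48 and 21.05 FPKM in estradiol 1, 2 and 3. Its groups overlapped and it did not pass the test (log2 fold change 0.05, SE 0.0428, limma adjusted p 0.394).

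The groups were not equally represented. Expressed members numbered 7 of 8 in group I, 3 of 3 in IIa, 5 of 5 in IIb, 8 of 17 in IIc, 6 of 7 in IId, 6 of 6 in IIe and 2 of 11 in group III. Group IId, whose proteins are known to bind calmodulin, had the highest summed level, 62.7 to 67.4 FPKM over its 7 members in mock and 76.5 to 81.4 FPKM in estradiol libraries. All 57 members together summed to 192.1 to 208.3 FPKM in mock and 220.6 to 241.5 FPKM in estradiol libraries, so that the groups did not overlap. Without AT4G01250 and ATWRKY49 the sums were 188.9 to 204.9 FPKM and 206.5 to 220.5 FPKM, and the means 198.3 ± 8.37 and 211.4 ± 7.88 FPKM (SD, n = 3) in place of 201.6 ± 8.47 and 228.1 ± 11.6 FPKM. All sums are of FPKM as deposited. Median-of-ratios size factors, another scaling of libraries, were 0.9562 to 0.9965 in mock and 1.0172 to 1.0266 in estradiol libraries. The narrow gap between the sums without AT4G01250 and ATWRKY49 does not hold once they are divided by these factors, and nothing is read from it. In RNA from whole seedlings, a change in the number of cells of a type and a change in RNA per cell cannot be told apart.

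**Figure D1:**
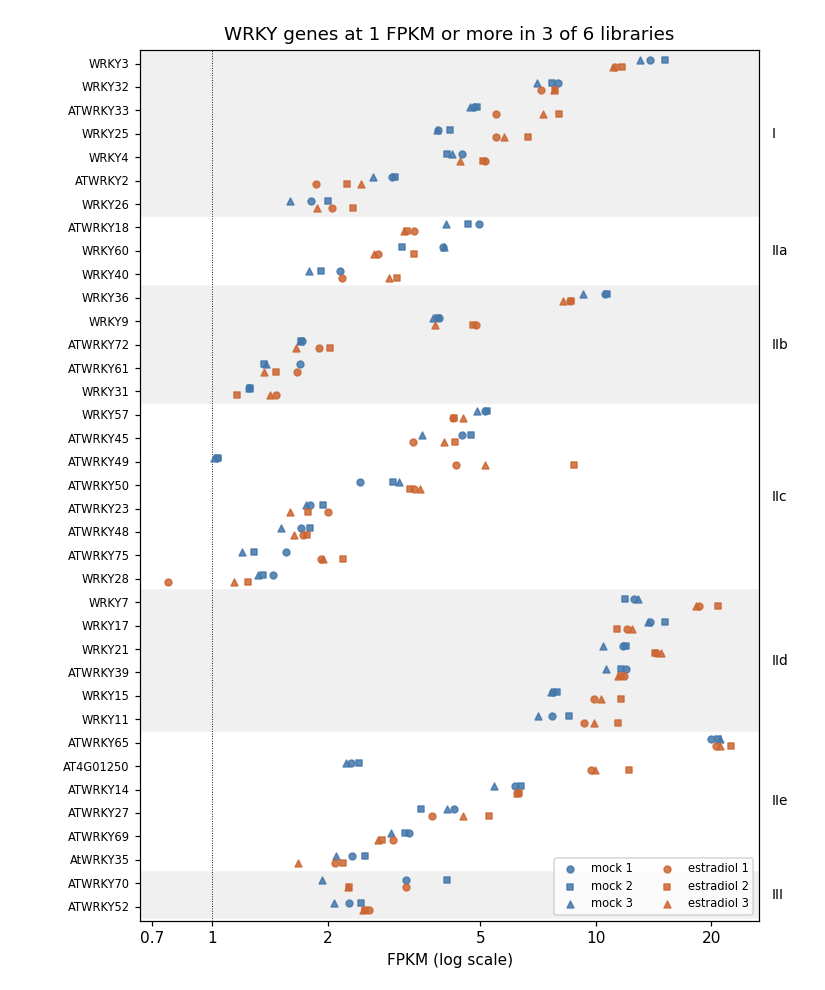
FPKM (log axis) of the 37 expressed WRKY genes in each library, mock in blue and estradiol in orange, with the marker shape giving the replicate and the label at the right giving the structural group. AT4G01250 and ATWRKY49 show the widest gaps between groups, with mock values of 2.24 to 2.41 and 1.01 to 1.04 FPKM and estradiol values of 9.73 to 12.20 and 4.32 to 8.79 FPKM.

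With MUTE induction, 14 of the 35 expressed members other than AT4G01250 and ATWRKY49 passed a limma adjusted p of 0.05, 8 higher and 6 lower. That share, 40.0%, stood beside 36.2% of all genes tested. By direction, 23.3% of all genes were called higher and 12.9% lower. The members' share was thus near that of the whole table and is no result about the family. Values are log2(FPKM + 1), so fold changes of low genes are understated. The median log2 change over the 35 members was 0.05, as over all genes tested. Of the 35, 1 (WRKY7) passed with a change of at least 0.5 on this scale and 0 with a change of at least 2-fold, against 4.83% and 0.81% of all genes tested. With AT4G01250 and ATWRKY49, whose rises were known when the family was picked, the count becomes 16 of 37 (43.2%), 10 higher and 6 lower, and nothing is read from it. Replicates of WRKY genes were spread more widely than those of a typical gene, with a median SD of log2 values of 0.081 in mock and 0.0984 in estradiol libraries, against 0.0565 and 0.0592 over all genes tested. The expressed WRKY genes also had a lower median level than all genes tested, and the comparison was not matched for level.

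AT4G01250 (WRKY22), a group IIe factor known from the flagellin response and from leaf ageing in the dark, was at 2.30, 2.41 and 2.24 FPKM in mock 1, 2 and 3. It was at 9.73, 12.20 and 9.93 FPKM in estradiol 1, 2 and 3. The lowest estradiol value was 4.04 times the highest mock value, the means being 2.32 ± 0.0862 and 10.6 ± 1.37 FPKM (SD, n = 3), a ratio of 4.58, with a fitted log2 change of 1.80 (SE 0.0799). Its closest relative by protein alignment was ATWRKY27 (44.0% identity), known for its part in the symptoms of bacterial wilt. ATWRKY27 was at 3.96 ± 0.403 and 4.51 ± 0.760 FPKM and did not pass (0.14, limma adjusted p 0.310). AT4G23550 (WRKY29), which is named with WRKY22 as a late step of the flagellin pathway and shares 39.3% identity with it, stood at 6.33 ± 0.260 and 6.05 ± 0.476 FPKM and did not pass either (-0.06, limma adjusted p 0.486). In mock libraries AT4G01250 was thus the lowest of these 3 genes, and in estradiol libraries the highest. The other group IIe members, ATWRKY14, AtWRKY35 and ATWRKY69, did not pass, with log2 changes of 0.06, -0.15 and -0.11.

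ATWRKY49, a little studied group IIc member, had the larger ratio of means. It was at 1.03, 1.04 and 1.01 FPKM in mock libraries, just above the level that counts as expressed. It rose to 4.32, 8.79 and 5.13 FPKM in estradiol 1, 2 and 3, means of 1.03 ± 0.0153 and 6.08 ± 2.38 FPKM (SD, n = 3), a ratio of 5.92 and a fitted log2 change of 1.75 (SE 0.193). The lowest estradiol value was 4.15 times the highest mock value, and estradiol 2 stood above the other two estradiol libraries. Without estradiol 2 the log2 change was 1.49. WRKY57, the member closest to it in protein sequence (30.7% identity) and one whose activation is known to give drought tolerance, moved the other way, from 5.14, 5.20 and 4.90 FPKM in mock to 4.24, 4.26 and 4.50 FPKM (log2 change -0.19, SE 0.0470, limma adjusted p 0.0157). That call was lost without mock 1 or without mock 2.

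**Figure D2:**
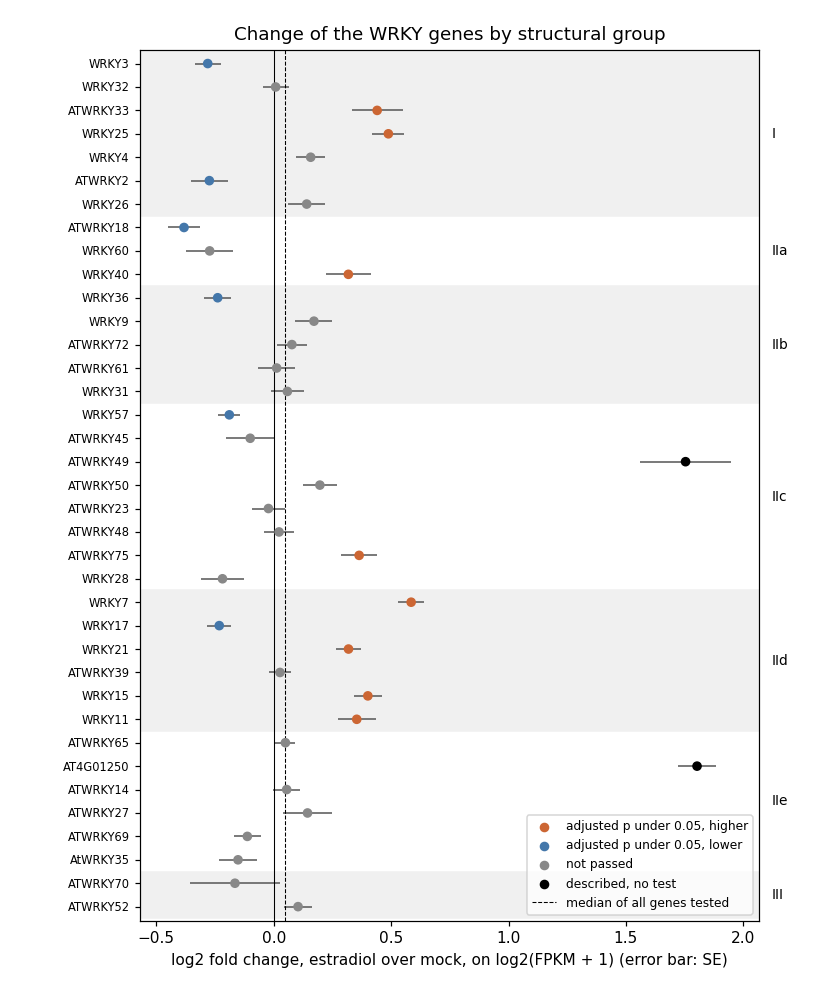
Fitted log2 fold change of the 37 expressed WRKY genes, estradiol over mock, on the log2(FPKM + 1) scale with its SE, by structural group. Orange points passed as higher (8 genes), blue as lower (6 genes) and grey did not pass (21 genes); AT4G01250 and ATWRKY49, in black, are described without a test and stand at 1.80 and 1.75, and the dashed line marks the median of all genes tested, 0.05.

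Of the 6 expressed members of group IId 5 passed, 4 higher and 1 lower, where 36.2% of all genes were called, and the group's median log2 change was 0.34. No test compared the groups with each other. WRKY7 was at 12.54, 11.94 and 12.91 FPKM in mock and at 18.62, 20.80 and 18.24 FPKM in estradiol libraries, with no overlap (log2 change 0.59, SE 0.0552, limma adjusted p 0.000195). WRKY15, known from salt and oxidative stress, went from 7.73, 7.94 and 7.66 to 9.89, 11.65 and 10.29 FPKM (0.40, limma adjusted p 0.00155). WRKY21 went from 11.79, 12.00 and 10.42 to 14.32, 14.23 and 14.78 FPKM (0.32, limma adjusted p 0.00307). These 3 rose under each of the 13 alternatives run.

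WRKY11 and WRKY17, annotated as negative regulators of resistance to Pseudomonas syringae, are close relatives with 76.3% protein identity, yet they moved in opposite directions. WRKY11 rose from 7.70, 8.49 and 7.09 to 9.29, 11.41 and 9.91 FPKM (log2 change 0.35, SE 0.0815, limma adjusted p 0.0115). WRKY17 fell from 13.82, 15.10 and 13.65 to 12.03, 11.33 and 12.43 FPKM (-0.23, SE 0.0515, limma adjusted p 0.00982). The ratio of WRKY11 to WRKY17 within each library was 0.519 to 0.562 in mock and 0.772 to 1.01 in estradiol libraries. ATWRKY39, by contrast, stood at 11.4 ± 0.677 and 11.6 ± 0.210 FPKM (0.03, limma adjusted p 0.698). Its near relative ATWRKY74 (77.3% identity) was not expressed, at 0.33 to 0.49 FPKM.

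Group I, the members with a pair of domains, also held calls in both directions. ATWRKY33, a substrate of MAP kinases that is needed for resistance to necrotrophic fungi, was at 4.81, 4.89 and 4.69 FPKM in mock and at 5.50, 8.04 and 7.28 FPKM in estradiol libraries (log2 change 0.44, SE 0.108, limma adjusted p 0.0150). Estradiol 1 was the closest to mock, and the call was lost without mock 3 or without estradiol 3, with an adjusted p of up to 0.0546. An antisense non-coding gene overlaps ATWRKY33 by 272 bases in the reference annotation, and whether the counting used the strand is not stated in the sources used here. WRKY25, which acts in heat and salt responses, rose from 3.87, 4.16 and 3.86 to 5.50, 6.66 and 5.77 FPKM (0.49, SE 0.0678, limma adjusted p 0.00119). Its closest relative WRKY26 (52.8% identity) overlapped between groups at 1.60 to 2.0 and 1.88 to 2.33 FPKM (0.14, limma adjusted p 0.196), and the difference between the relatives was not tested.

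WRKY3 and WRKY4, relatives with 72.1% identity, are known from resistance to necrotrophs. WRKY3 fell from 13.85, 15.16 and 13.05 to 11.22, 11.71 and 11.10 FPKM (log2 change -0.28, SE 0.0552, limma adjusted p 0.00586). WRKY4 was at 4.48, 4.10 and 4.23 and at 5.13, 5.09 and 4.43 FPKM (0.16, limma adjusted p 0.0797). The ratio of WRKY3 to WRKY4 was 3.09 to 3.70 in mock and 2.19 to 2.51 in estradiol libraries. ATWRKY2, known for its role in the polarity of the zygote, went from 2.62 to 2.99 FPKM in mock to 1.87 to 2.45 FPKM (-0.27, limma adjusted p 0.0286), a call that was lost under 6 of the 12 alternatives in which it was tested. Among these were the fits without mock 1, mock 2, estradiol 1 or estradiol 2, and the fit with the replicate number as a block, with a limma adjusted p of up to 0.0889. An annotated gene on the opposite strand overlaps ATWRKY2 by 43 bases and another overlaps WRKY40 by 51 bases. WRKY32 did not pass, at 7.55 ± 0.491 and 7.59 ± 0.341 FPKM (0.01, limma adjusted p 0.924).

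Group IIa consists of WRKY18, WRKY40 and WRKY60, pathogen-induced factors that form complexes with each other. ATWRKY18 fell from 4.95, 4.64 and 4.06 FPKM in mock to 3.36, 3.23 and 3.16 FPKM in estradiol libraries, with no overlap (log2 change -0.38, SE 0.0666, limma adjusted p 0.00340). WRKY40 was at 2.16, 1.92 and 1.79 and at 2.18, 3.03 and 2.89 FPKM (0.32, limma adjusted p 0.0346), so that estradiol 1 lay close to mock 1. Its call was lost under 7 of the 12 alternatives in which it was tested, among them median-of-ratios scaling, the replicate block, and the fits without mock 2, mock 3, estradiol 2 or estradiol 3, with an adjusted p of up to 0.114. WRKY60 overlapped between groups, at 3.12 to 4.02 and 2.64 to 3.35 FPKM, and fell short of the threshold (-0.27, limma adjusted p 0.0625). It passed without mock 2, without estradiol 2 and under both other scalings, the adjusted p ranging from 0.0213 to 0.185 over its alternatives. In mock libraries the ratio of WRKY40 to ATWRKY18 was 0.414 to 0.441, and in estradiol libraries 0.649 to 0.938. The ratio of ATWRKY18 to WRKY60 overlapped between groups, at 1.01 to 1.49 and 0.964 to 1.24.

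**Figure D3:**
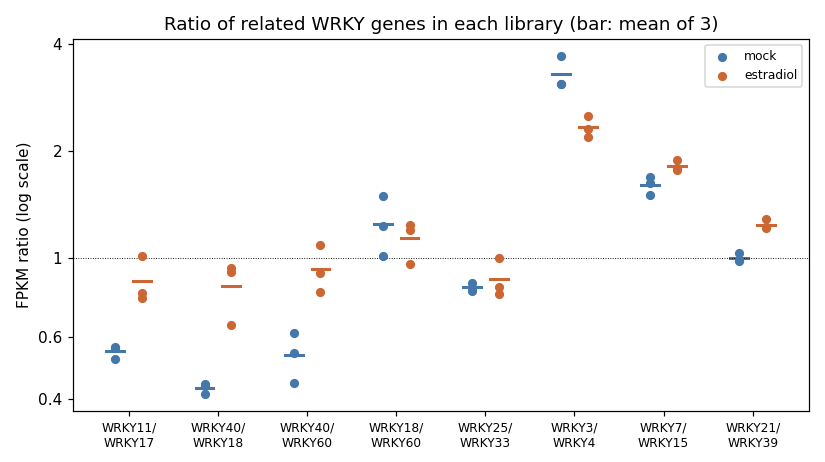
Ratio of FPKM values between related WRKY genes within each library (log axis), mock in blue and estradiol in orange, with a bar at the mean of 3 libraries. The ratio of WRKY11 to WRKY17 has means of 0.546 and 0.859 and that of WRKY40 to WRKY18 of 0.430 and 0.834, while WRKY18 to WRKY60 and WRKY25 to WRKY33 overlap between groups; the pairs were chosen after their values were seen and were not tested.

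Among the remaining expressed members, 2 passed. ATWRKY75, induced in phosphate starvation, rose from 1.56, 1.29 and 1.20 to 1.92, 2.19 and 1.95 FPKM (log2 change 0.36, SE 0.0754, limma adjusted p 0.00742). Its closest relative ATWRKY45 (56.6% identity), also known from phosphate supply, was at 4.25 ± 0.637 and 3.89 ± 0.495 FPKM with overlapping groups (-0.10, limma adjusted p 0.486). WRKY36, a group IIb member known to act in light-controlled growth of the hypocotyl, fell from 10.56, 10.72 and 9.27 to 8.59, 8.61 and 8.19 FPKM (-0.24, SE 0.0574, limma adjusted p 0.0137). The other 4 expressed members of group IIb, WRKY9, ATWRKY72, ATWRKY61 and WRKY31, did not pass, with log2 changes from 0.01 to 0.17.

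Of the 21 expressed members that did not pass, 3 had groups that did not overlap. ATWRKY50 was at 2.43, 2.97 and 3.08 and at 3.36, 3.28 and 3.48 FPKM (log2 change 0.20, limma adjusted p 0.0665). ATWRKY52, better known as the resistance protein RRS1, was at 2.08 to 2.45 and 2.47 to 2.56 FPKM (0.10, limma adjusted p 0.206). WRKY28 was at 1.32 to 1.44 and 0.77 to 1.24 FPKM (-0.22, limma adjusted p 0.102). Non-overlapping groups were found for 17 of the 35 expressed members other than AT4G01250 and ATWRKY49, 10 above and 7 below mock, against 51.0% of all genes tested, 33.7% above and 17.4% below. ATWRKY70, a salicylic acid regulator, had the widest spread of the family in mock, at 3.21, 4.10 and 1.94 FPKM, and was at 3.20, 2.27 and 2.26 FPKM with estradiol (-0.17, limma adjusted p 0.532).

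Among the 8 members called higher, estradiol 2 was the highest of the estradiol libraries in 7, the exception being WRKY21, and it was so for AT4G01250 and ATWRKY49. Over all 4454 genes called higher, estradiol 2 was the highest in 34.8%. MUTE itself was at 2964 FPKM in estradiol 2, between 2946 FPKM in estradiol 1 and 3049 FPKM in estradiol 3. Without estradiol 2, 7 members were called higher and 6 lower, 12 of these 13 being among the 14 called with all libraries. Mock 3 was the lowest mock library in 29 of the 37 expressed members, and in 55.0% of all genes tested.

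The other 20 members were below the expression threshold, 9 of them in group IIc, 9 in group III and 1 each in groups I and IId. WRKY64 was listed at 0 in all libraries, 7 members including it never exceeded 0.1 FPKM, and the highest value of any was 1.18 FPKM. The members nearest the threshold on the inside were WRKY31, at 1.16 to 1.47 FPKM, and WRKY28. Nearest on the outside was ATWRKY46, a group III stress regulator, at 0.63, 0.65 and 0.48 FPKM in mock and at 0.98, 1.18 and 0.89 FPKM in estradiol libraries. ATWRKY51 was at 0.68, 0.59 and 0.48 and at 0.24, 0.22 and 0.36 FPKM, and ATWRKY8 at 0.18 to 0.22 and 0.10 to 0.12 FPKM. In a fit over all 26727 rows above 0 in at least 1 library, in which 24.0% of rows passed, these 3 passed and the other members below the threshold did not (ATWRKY46 0.35, limma adjusted p 0.0153; ATWRKY51 -0.31, limma adjusted p 0.0143; ATWRKY8 -0.11, limma adjusted p 0.0182). ATWRKY51 and ATWRKY50 both carry the AAG codon in the signature shown above. No expressed member had all 3 libraries of a group below 1 FPKM.

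Of the 15 WRKY genes listed under other names 10 were expressed and 2 passed, both higher, against 36.2% of all genes called. ZAP1 (WRKY1) went from 6.02 ± 0.0529 to 7.35 ± 0.405 FPKM (log2 change 0.25, limma adjusted p 0.00522). AT4G11070 (WRKY41), a group III member, went from 0.940 ± 0.106 to 1.52 ± 0.187 FPKM (0.37, limma adjusted p 0.00740). It reached 1 FPKM in 1 mock library and in 3 estradiol libraries, so it was tested only because of its estradiol values. Its call supports nothing, though it is counted in the 2 that passed and the 10 expressed. An annotated gene on the opposite strand overlaps AT4G11070 by 517 bases. AT4G23810 (WRKY53), known from leaf ageing, did not pass (0.26, limma adjusted p 0.0641), but it passed with the replicate block and without estradiol 1, the adjusted p ranging from 0.00664 to 0.178 over its alternatives.

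Genes that act before, with and after WRKY factors were described from lists chosen by role, with earlier results of these data known. All genes tested had a median log2 change of 0.05, and 36.2% of them were called, 23.3% higher and 12.9% lower. No list was tested against other genes. Genes of a list may also have roles beyond its name, and no change of a pathway is read from these calls. The list of receptors and MAP kinases of pattern-triggered immunity, which relays signals such as flagellin to WRKY22, WRKY29 and WRKY33, had 16 members, all tested, of which 8 were higher and 1 lower (56.2% called), with a median log2 change of 0.13. The 1 lower was RBOHD, the oxidase of the immune oxidative burst (-0.20, limma adjusted p 0.0106). BIK1, a kinase bound to the receptors, showed the largest change, from 11.11, 10.76 and 10.62 to 15.94, 18.88 and 16.32 FPKM (log2 change 0.61, limma adjusted p 0.000281). MPK6 rose from 21.63 to 23.18 FPKM in mock to 26.38 to 27.64 FPKM (0.25, limma adjusted p 0.00207). MPK3, which acts beside MPK6, did not pass, at 26.3 ± 1.65 and 23.7 ± 1.13 FPKM (-0.14, limma adjusted p 0.0741). It passed as lower under 4 of 13 alternatives, both other scalings among them, with a limma adjusted p of 0.0136 to 0.211 over all 13. BAK1, among the 8 higher (0.15, limma adjusted p 0.0298), lost the call under 6 of 13 alternatives. CPK6, a calcium-dependent kinase of the same response, rose by 0.22 (limma adjusted p 0.00544). The flagellin receptor FLS2 did not pass (0.08, limma adjusted p 0.426).

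The next list holds typical outputs of the immune response, and the one after it holds salicylic acid genes. Of 5 tested genes in the immune response and camalexin list 0 passed in limma, where 36.2% of all genes did, 0 had an unadjusted p under 0.05, and the median log2 change was -0.004. FRK1, a reporter of the flagellin response that WRKY22 and WRKY29 activate, was below the threshold, at 0.30, 0.19 and 0.48 FPKM in mock and 0.41, 0.11 and 0.43 FPKM in estradiol libraries. PAD3, the last enzyme of camalexin synthesis and a target of WRKY33, was at 5.87, 5.44 and 2.77 and at 2.15, 6.42 and 3.27 FPKM (log2 change -0.25, limma adjusted p 0.585), so that replicates differed more than groups. MYB51, a regulator of indole glucosinolates and the other of the list's 2 most abundant genes, was at 4.45 ± 0.256 and 4.44 ± 0.410 FPKM. Of 12 tested salicylic acid genes 3 passed, against 36.2% of all genes, EDS1 higher (0.27, limma adjusted p 0.00550) and PAD4 (-0.25, limma adjusted p 0.00449) and NIMIN2 (-0.47, limma adjusted p 0.00119) lower, and the median was -0.01. EDS1 and PAD4 encode partners in the same complex. PR1, the classical marker of salicylic acid, was at 0 to 0.14 FPKM in every library.

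VQ motif proteins bind WRKY factors, and of 9 tested VQ genes 2 passed (22.2%, against 36.2% of all genes), with a median log2 change of 0.04. VQ4, a MAP kinase target, rose from 13.57 to 14.13 FPKM in mock to 17.81 to 17.89 FPKM (log2 change 0.35, limma adjusted p 0.000234), and SIB2, a partner of WRKY33, fell from 12.3 ± 0.390 to 10.5 ± 0.633 FPKM (-0.22, limma adjusted p 0.0121). Of 4 tested senescence genes 2 rose (50.0%, against 23.3% of all genes called higher), SEN1 (0.76, limma adjusted p 0.000432) and SAG21 (0.40, limma adjusted p 0.000453), and the median was 0.26. SAG12, the marker of advanced leaf ageing, was at 0 to 0.01 FPKM. In the list of rapid stress and touch responses 7 of 14 tested genes passed (50.0%, against 36.2% of all genes), 5 higher and 2 lower, with a median of -0.05. The largest changes among them were those of MYB44 (-0.45, limma adjusted p 0.00147), ERF6 (0.38, limma adjusted p 0.0480) and JAZ10 (0.35, limma adjusted p 0.00881). JAZ10 was at 0.64 to 0.74 FPKM in mock and 1.01 to 1.34 FPKM in estradiol libraries. It was thus tested only because of its estradiol values. Its call supports nothing, though it is counted in the 7, the 5 higher and the 50.0%. ERF6 and ZAT10 (0.31, limma adjusted p 0.0432) each lost the call under 9 of the 12 alternatives in which they were tested.

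**Figure D4:**
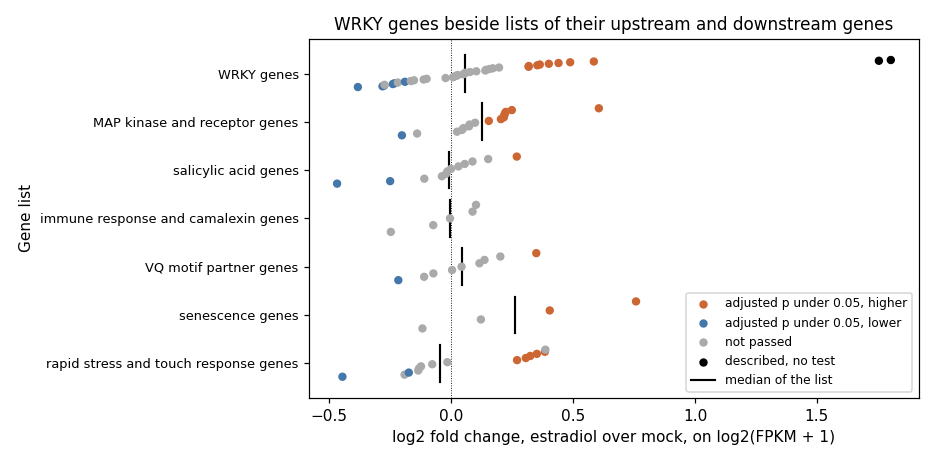
Log2 fold change of each tested gene, estradiol over mock, on the log2(FPKM + 1) scale, for the WRKY genes and 6 lists of genes that act before, with or after them; orange and blue points passed as higher or lower, grey points did not, black points are AT4G01250 and ATWRKY49, described without a test, and the black bar is the list's median. The medians run from -0.05 (rapid stress and touch) to 0.26 (senescence, 4 genes), and no list gene lies as far out as AT4G01250 and ATWRKY49.

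Marker genes of leaf, root, epidermis, guard cells and vasculature were present in all libraries, except the root gene NRT2.1, which was below the threshold. The 4 leaf markers summed to 11203 to 12179 FPKM in mock and 12085 to 12597 FPKM in estradiol libraries. Of these, GAPA was lower (-0.17, limma adjusted p 0.0244, lost under 7 of 13 alternatives), while CAB1 (0.14), RBCS1A (0.06) and LHCB2.1 (-0.24) did not pass. Summed over its 3 markers the epidermis was at 111.6 to 126.3 FPKM in mock and 209.1 to 241.8 FPKM in estradiol libraries, of which PDF1 rose by 0.98 (limma adjusted p 5.57e-05) and PDF2 by 0.13 (limma adjusted p 0.0389, lost under 9 of 13 alternatives), while ATML1 did not pass (0.0005, limma adjusted p 0.993). Guard cell markers summed to 14.2 to 15.4 and 14.1 to 16.1 FPKM, with 0 of 4 passing in limma and 1, HT1, at an unadjusted p under 0.05. The root markers EXP7 (-0.40, limma adjusted p 0.000532) and CASP1 (0.28, limma adjusted p 0.00240) moved in opposite directions. The part of these markers in the WRKY changes was not tested.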

How the data were processed

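Messenger RNA from 3 mock and 3 estradiol libraries was read in pairs of 50 bases from stranded libraries, per the labels. The authors deposited FPKM values, 1 per gene name and library, with 2 decimals. The submitters' processing notes name TopHat2 2.0.13, DESeq2 and the build TAIR10 without giving their roles, and the quantifier, its annotation and its scaling of libraries are not given in the sources used here. The table held 1 further numeric column that named no sample, and it was not used. How fragments were divided between similar or overlapping genes is not known. Of the 50-base stretches of WRKY40, 2.27% occur in another gene, and of those of the other expressed members none do. Genes were compared in their sense orientation only, so stretches shared with an overlapping gene on the opposite strand were not counted.

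Values were tested as log2(FPKM + 1) over the 19134 genes at 1 FPKM or more in at least 3 of 6 libraries, with limma 3.58.1 in R 4.3.3. The linear model held the group alone, and moderated two-sided tests (eBayes, trend by mean level) followed, with Benjamini-Hochberg adjustment over all genes kept and a threshold of 0.05. It was tested on simulated data first. Means carry the SD over 3 libraries and changes the SE of the fit. The 13 alternatives changed the pseudocount, the filter, the scaling, the trend or the replicate block, or left out 1 library.

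The members and lists were chosen with earlier results of these data known. Named in full were AT4G01250, ATWRKY49, members past the threshold that changed by at least 0.5, the 5 of highest level, their closest relatives and the members beside the expression threshold, with up to 3 genes of each list. The other members and list genes named were chosen after their values were seen. Names, groups, coordinates and sequences came from RefSeq's TAIR10.1, whose nuclear chromosomes are those of TAIR10, and groups the annotation does not give were filled from general knowledge of the family. ATWRKY23 and ATWRKY45, annotated there as group I, carry a single signature and were placed in IIc. Identity is that of global alignments of the translated longest coding sequences, made with Biopython 1.88. It is given over the length of the shorter protein, and closest relatives were those of highest alignment score. The list gene PHI1 matched 2 rows and was left out.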

Additional observations from a re-analysis of the deposited data

How the results depend on the processing

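Counts of WRKY members here hold AT4G01250 and ATWRKY49, so that the reported fit has 16. Over the 13 alternatives 14 to 18 passed, except under a filter at 5 FPKM, which tested fewer genes. There 10 passed, all among the 16 of the reported fit, 3 of them lower in place of 6. Under that filter 1 salicylic acid gene passed in place of 3, 1 senescence gene in place of 2 and 4 rapid stress genes in place of 7. Leaving out 1 library at a time, 14 to 16 members and 5337 to 5794 of all genes passed, against 6928 with all libraries. Equal replicate numbers showed no pairing, the correlations of same-numbered deviations being -0.0064, 0.0474 and -0.002, and 2 of 6 libraries correlated best with their own number. With the replicate number as a block 14 members passed, all among the 16, and 6038 genes. The 7 members followed one by one were AT4G01250, ATWRKY49 and the 5 of highest level, chosen for size of change or level. They therefore do not speak for the other calls. Those of WRKY40, ATWRKY2, ATWRKY33 and WRKY57, not among the 7, were lost under 7, 6, 2 and 2 alternatives. Of the 90 values for the 7 members, 13 are those of AT4G01250 and 12 those of ATWRKY49. Both were picked as known large rises, so their values support nothing. For the 7 members, 89 of 90 values kept their direction and their side of the threshold. The exception was ATWRKY65, which moved to -0.0046 under median-of-ratios size factors (limma adjusted p 0.949) and passed in neither fit. That scaling moved the median change of all genes from 0.05 to 0.0005. Under it 9 members were higher and 8 lower, and under quantile normalization 10 and 8, in place of 10 and 6. Of all genes, 6440 and 6531 passed under these scalings. With 3 libraries a group and no counts, the depth behind values near 1 FPKM is unknown.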
